A study of Mus musculus with 30 samples.

Results

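Among the autosomal genes of mouse embryonic stem cells (mESCs) with a 129/Sv and a Cast/Ei genome, 45 were read almost only from the 129 copy. They were chosen from the 2 XX Wildtype libraries. Of 5874 protein-coding genes on autosomes other than 5, 8 and 12 that had at least 100 reads assignable to one of the parental strains (allelic counts) over both libraries, these 45 (0.766%) had a 129 share of 90% or more in each. The table as a whole held 55240 genes with an annotation in GENCODE M21. The shares in XX Wildtype are therefore what chose the genes and are given as a description, and the tests below leave these 2 libraries out, except for an alternative fit to all 30 libraries that is named as such.

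Bulk RNA-seq was available for 30 libraries, all of female mESCs of the cross 129/Sv x Cast/Ei grown on mouse embryonic fibroblasts (MEFs) as feeders, with the MEFs depleted by letting them settle on a plate before RNA was taken. XX Wildtype has both X chromosomes, XX Rnf12 lacks 1 copy of the X-linked gene Rnf12, XCastO129 kept only the Cast X and X129OCast only the 129 X, with 2 libraries each. The study places its Rnf12 deletion on the 129 X, and Rnf12 was almost absent in X129OCast, as given below. The 13 deletion lines lack a segment of 1 X and were, per the study's methods, made in Rnf12+/- cells. Deletions J and I-TEL came from another Rnf12+/- line than the rest, made with other guide RNAs. A, B, AB and C-G were each sequenced from 1 clone, and C, D, E, F, H, I, I-TEL, J and K from 2. XX Wildtype, XX Rnf12 and Deletion E formed a library batch of 6, the other 12 deletion lines a batch of 20, and the 4 XO libraries a batch of 4. The XO libraries alone were read as single reads, all others as paired reads, of 50 bases. Per the study's methods, the XO libraries were also run on another sequencer. The strain of the feeder MEFs is not given in the sources used here.

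In cells of a cross, a read that covers a base at which the parents differ can be assigned to one parent. Most autosomal genes are transcribed from both copies, and imprinted genes are read from one copy according to the parent it came from. A gene can also appear to be read from a single strain when a second cell type of that strain adds its RNA to the sample, or when reads of one copy are lost or placed elsewhere in the genome. Feeder fibroblasts make collagens and other matrix proteins that stem cells make little of, and Col1a1, which encodes the main chain of type I collagen, is a common measure of them. Ribosomal protein genes and other genes for small abundant proteins have many processed copies in the mouse genome, most of them without introns.

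The 45 genes included matrix genes of fibroblasts and genes for small abundant proteins. Those below are shown because the coding sequences of 14 of the 45 genes recur nearly unaltered elsewhere in the reference, at 95% identity or more over at least 80% of their length, against 417 of 5873 (7.10%) of the protein-coding genes they were drawn from. Each pair gives the first 60 coding bases of a gene, then those of its closest copy of known position, 5′ to 3′, as in the GENCODE M21 transcripts (GRCm38, which is neither the 129 nor the Cast genome), with capitals where they differ. S100a11 (chr3:93520488-93526287, plus strand) encodes a small calcium-binding protein, Psma5 (chr3:108256926-108279974, plus strand) a proteasome subunit, Rplp1 (chr9:61913284-61914542, minus strand) a ribosomal stalk protein, Rps15 (chr10:80292453-80294114, plus strand) a protein of the small ribosomal subunit and Snrpd2 (chr7:19149722-19153542, plus strand) a core protein of the spliceosome. Their copies lie at chr4:116067268-116067564, chr10:85313488-85314439, chr8:106572966-106573461, chr6:58017506-58017943 and chr10:128011776-128012132, that of Rplp1 on the minus and the others on the plus strand.
S100a11: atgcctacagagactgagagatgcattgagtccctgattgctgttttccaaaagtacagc
Gm12854: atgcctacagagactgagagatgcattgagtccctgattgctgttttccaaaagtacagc
Psma5: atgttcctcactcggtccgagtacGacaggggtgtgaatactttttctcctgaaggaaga
Gm8394: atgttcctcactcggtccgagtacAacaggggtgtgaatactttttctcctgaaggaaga
Rplp1: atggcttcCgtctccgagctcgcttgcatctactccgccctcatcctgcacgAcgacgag
Gm10073: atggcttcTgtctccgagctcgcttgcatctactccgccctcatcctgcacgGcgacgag
Rps15: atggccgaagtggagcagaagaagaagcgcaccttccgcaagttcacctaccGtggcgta
Rps15-ps2: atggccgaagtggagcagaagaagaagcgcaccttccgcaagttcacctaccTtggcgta
Snrpd2: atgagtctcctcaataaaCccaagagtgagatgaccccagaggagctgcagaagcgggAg
Gm10120: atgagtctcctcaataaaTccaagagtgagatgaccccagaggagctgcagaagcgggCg
The windows of S100a11 and Gm12854 had 0 mismatches, those of Psma5 and Rps15 had 1 against their copies, and those of Rplp1 and Snrpd2 had 2. Over the whole aligned coding sequence the copies were 98.98%, 98.9%, 98.5%, 97.7% and 98.87% identical, in the order S100a11, Psma5, Rplp1, Rps15 and Snrpd2. Reads of these genes can be split between gene and copy, so their levels and shares are uncertain.

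Depth was 8816184 to 10680026 counts per library in the batch of 20, 20375194 to 21181405 in the batch of 6 and 14998265 to 16494893 in the XO libraries. At most 12.7% of the counts of a paired-read library could be assigned to a strain, and 21.9% to 22.0% of those of a single-read XO library. Rlim (Rnf12) was at 193 and 211 TPM (counts per length of exons, scaled to the same total in each library) in XX Wildtype, at 77.6 and 79.7 in XX Rnf12, at 71.2 and 77.8 in XCastO129 and at 3.53 in both X129OCast libraries. In the deletion lines it was at 144 and 107 TPM in Deletion C, at 99.4 and 116 in Deletion E and between 50.4 and 99.9 in the others. Both libraries of Deletion C, Deletion E and Deletion H (81.9 and 87.0) lay above XX Rnf12 and below XX Wildtype. So did Deletion F replicate 1 (89.3) and Deletion K replicate 2 (99.9). The 129 share of X-linked allelic counts was 7.12% and 7.63% in XCastO129 and 98.4% and 98.5% in X129OCast, which matched the labels of the XO lines. Pluripotency genes were high in all 30 libraries, with Pou5f1 between 1520 and 2160 TPM.

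The 45 genes lay on 14 chromosomes, with at most 6 on 1 chromosome and at least 1262 kb between neighbours. The median 129 share of the 5874 genes was 52.0% in XX Wildtype. The members with the most allelic counts there were Ubb, a polyubiquitin gene, with 2323 counts, Rps15 with 1966, Rpl11 with 1953, Rpl7a with 1903 and Tnc with 1071. Just inside the threshold, the lower of both shares was 90% for Ptgs2, 90% for Oaf and 90.2% for Recql. Just outside it, the lower share was 89.7% for Hspe1, 89.6% for Sept1 and 89.5% for Cav1.

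In the 28 libraries that did not choose the genes, the 129 share was 90% or more in 1033 of the 1260 values (45 genes in 28 libraries, 82.0%). Since the genes were chosen for a share near the ceiling, it could hardly rise elsewhere. In the 24 paired-read libraries, 33 (Deletion K replicate 1) to 42 (Deletion I-TEL replicate 2) of the 45 genes were at 90% or more, and in the 4 XO libraries 25 to 29 were. Cavin2, a coat protein of caveolae, had 0 Cast counts of 569 in the 28 libraries, which allows a Cast share of up to 0.527%, and Tm4sf1, a small membrane protein, 0 of 1175, which allows up to 0.255%. Tnc, the matrix glycoprotein tenascin C, had 99.9% 129 counts of 7627, and Lyz2, the lysozyme of macrophages, 99.9% of 3482. The lowest shares over the 28 libraries together were 77.4% for Tsen34, a subunit of the tRNA splicing endonuclease, 79.4% for Rplp1, 82.1% for Crabp1, a retinoic acid binding protein, 83.0% for Recql, a DNA helicase, and 86.2% for Rpl11, a protein of the large ribosomal subunit. Confidence intervals and limits here and below cover counting error only.

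**Figure D1:**
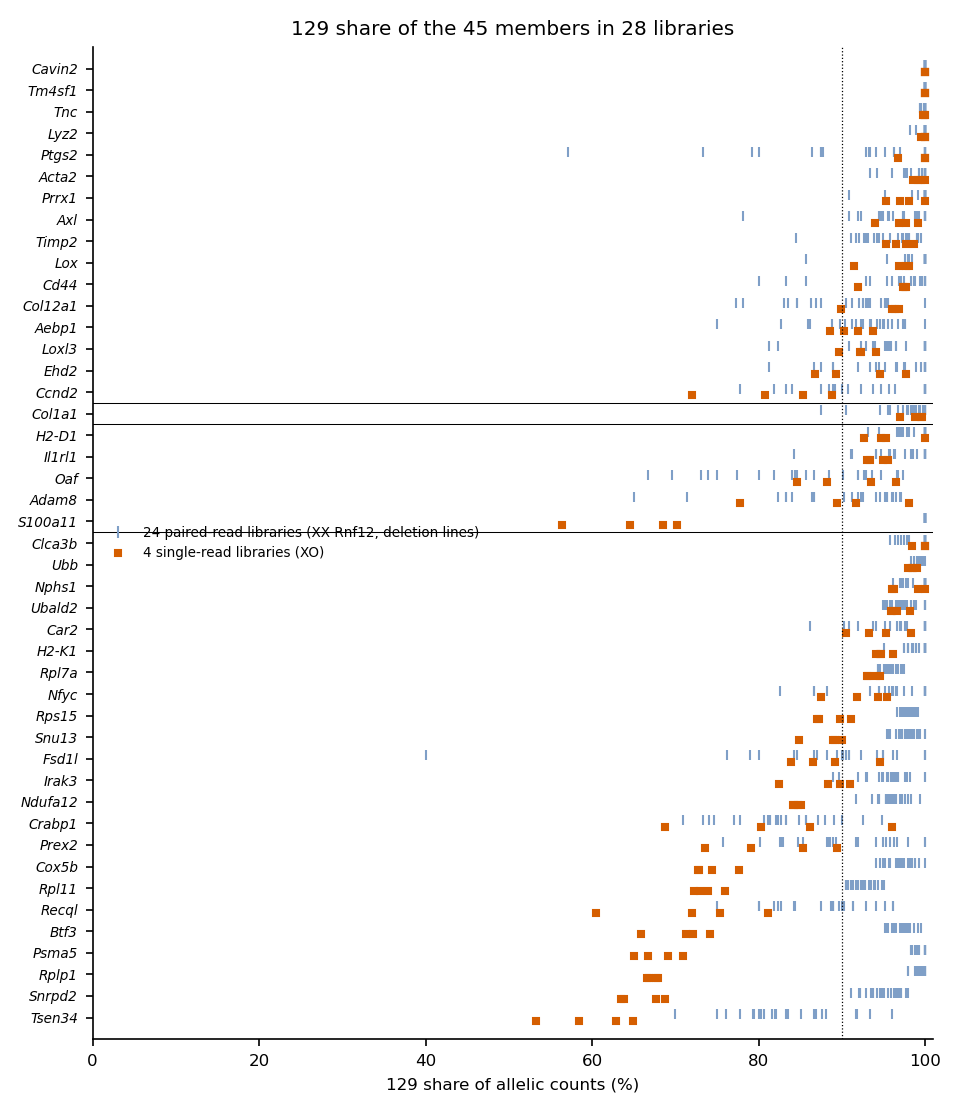
The 129 share of allelic counts (%) of each of the 45 members in the 24 paired-read libraries other than XX Wildtype (blue ticks) and the 4 single-read XO libraries (orange squares), with the threshold of 90% dotted. Lines separate, from the top, the 16 members with a slope of 0.5 or more on Col1a1, Col1a1, the 5 with a smaller called slope and the 23 not called; the orange squares leave the blue ticks in S100a11, Rplp1, Psma5 and 8 others.

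Of the 44 genes other than Col1a1, 21 rose with the level of Col1a1 and 0 fell, in edgeR's quasi-likelihood test of the slope over 28 libraries with a term for each batch (Benjamini-Hochberg adjusted p under 0.05). Over all 18098 genes tested, 6.22% rose and 2.53% fell. Of the 44 genes 23 had an unadjusted p under 0.05, and their median slope was 0.16 against 0.00 over all genes. For 16 of them the called slope was 0.5 or more in log2 level per log2 of Col1a1, where 3.41% of all genes had such a slope, and these are said below to follow Col1a1. All 45 genes passed the filter on low counts. The choice of genes may have favoured such slopes, since the minimum of allelic counts applied to both XX Wildtype libraries together. Col1a1 was at 138 TPM in replicate 1 and 36.4 in replicate 2. There, 129 counts were 475 and 76 for Lyz2, 113 and 51 for Tm4sf1, and 879 and 192 for Tnc. Without replicate 1 the rule gave 23 genes, 20 of them members. Part of the excess over all genes may therefore come from the choice. In bulk samples, fewer cells of a type and less RNA per cell cannot be told apart.

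Col1a1 itself was a member. Its level was 138 and 36.4 TPM in XX Wildtype, 170 and 28.3 in XX Rnf12, 116 and 182 in Deletion E, 37.6 and 89.0 in XCastO129 and 36.5 and 67.9 in X129OCast, and it ran from 16.2 through a median of 42.2 to 97.4 in the batch of 20. XX Wildtype and XX Rnf12 each had 1 high and 1 low library, and both Deletion E libraries lay above all XO libraries. Its 129 share was 98.8% in the 24 paired-read and 98.8% in the XO libraries.

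Of the 16 followers, Tnc, Lox, Acta2 and Col12a1 had the steepest slopes. Tnc rose by 1.04 per log2 of Col1a1 (SE 0.0673, adjusted p 1.97e-12 in edgeR's test), Lox, the lysyl oxidase that crosslinks collagen, by 1.02 (SE 0.0804, adjusted p 1.37e-10), and Col12a1, a collagen of fibril surfaces, by 0.95 (SE 0.0628, adjusted p 2.82e-12). Tnc was at 182 and 26.4 TPM in XX Rnf12, 116 and 173 in Deletion E, 41.1 and 82.5 in XCastO129 and 33.2 and 53.9 in X129OCast, and at 12.204, 35.0 and 74.2 (lowest, median, highest) in the batch of 20. The libraries high in Col1a1 were high in Tnc in each batch. Timp2, an inhibitor of matrix proteases, followed with 0.78 (SE 0.0649, adjusted p 3.77e-10), Loxl3, a relative of Lox, with 0.76, and Aebp1, a collagen-binding protein, with 0.68.

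Genes of the fibroblast cytoskeleton, surface and identity followed too. Acta2, smooth muscle actin, rose by 1.02 (SE 0.0503, adjusted p 2.61e-15 in edgeR's test). It was at 345 and 50.1 TPM in XX Wildtype, 493 and 46.4 in XX Rnf12, 330 and 489 in Deletion E, 42.9 and 108 in XCastO129 and 45.4 and 74.8 in X129OCast, and at 21.0, 47.5 and 112 in the batch of 20. Its 4 high libraries in the batch of 6 lay above every library of the other batches, and the remaining 2 lay among them. Axl, a receptor tyrosine kinase, rose by 0.83 (SE 0.0417, adjusted p 3.18e-15), Prrx1, a homeobox factor of mesenchyme, by 0.80 (SE 0.0744, adjusted p 3.87e-09) and Cd44, the receptor for hyaluronan, by 0.77 (SE 0.0766, adjusted p 1.33e-08). Ehd2 and Cavin2, both proteins of caveolae, followed with 0.75 and 0.73, Ccnd2, a D-type cyclin, with 0.74, Tm4sf1 with 0.70 and Ptgs2, a prostaglandin synthase, with 0.61.

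Lyz2 was the single follower known as a macrophage gene. It rose by 0.79 (SE 0.0771, adjusted p 8.6e-09 in edgeR's test), from 63.6 TPM in XX Rnf12 replicate 2 to 248 in replicate 1, and stood at 258 and 37.6 in XX Wildtype. Of 9 macrophage genes listed and tested, 8 rose with Col1a1 and 7 with a slope of 0.5 or more. Over all genes 6.22% and 3.41% did. Csf1r, the receptor of macrophage growth factor, had a slope of 0.86 and C1qa, a complement gene, of 0.76, and both had 129 shares of 100% in XX Wildtype, on only 38 and 45 allelic counts. Fcer1g, a chain of Fc receptors, rose with a slope of 0.499 (adjusted p 0.00181 in edgeR's test) but had a 129 share of 9.09%, on 22 counts. Cd68 was not called, with a slope of -0.20 and a share of 63.6% on 11 counts. The part of macrophages in these levels was not tested.

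**Figure D2:**
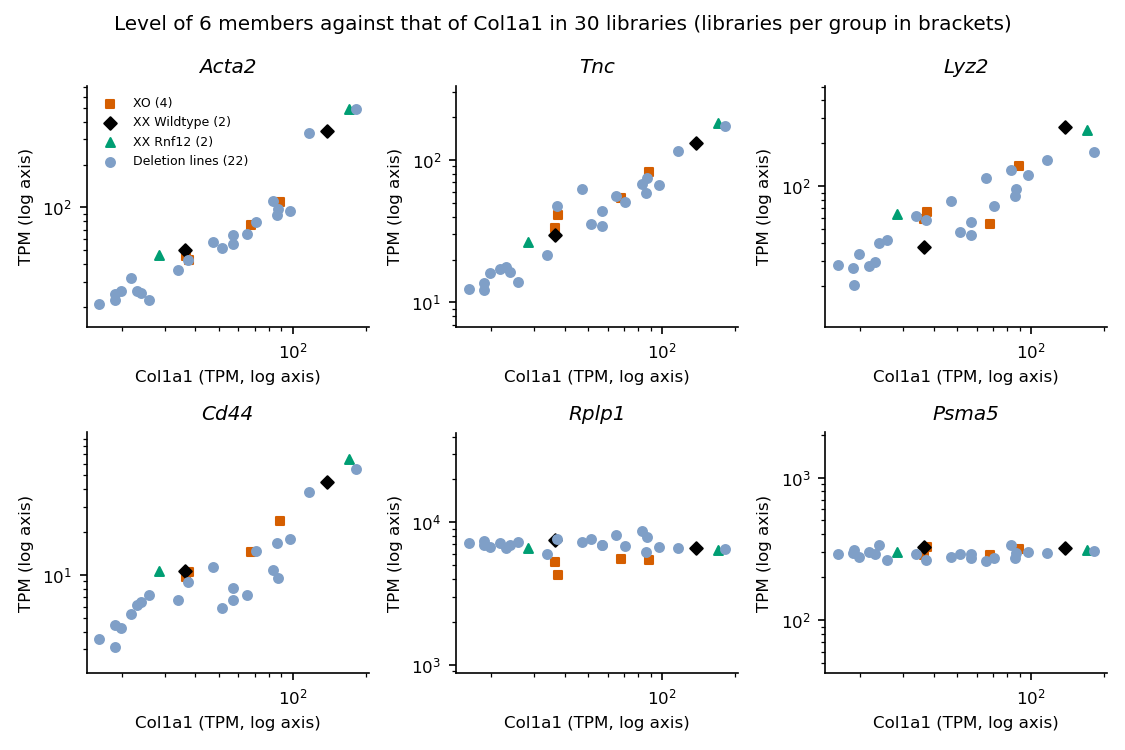
TPM of 6 members against the TPM of Col1a1 in 30 libraries, both on log axes, each point 1 library, with vertical axes that all span the same fold range. Acta2, Tnc, Lyz2 and Cd44 rise along Col1a1 from 16.2 to 182 TPM, while Psma5 stays between 258 and 338 TPM and Rplp1 between 4248 and 8759.

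Over the 30 libraries, the highest level of a follower was 4.66 to 23.5 times the lowest, with a median of 12.085 times. The followers were defined by their rise with Col1a1 and the members by XX Wildtype, so the summed level of the followers is only a description. It was 1648 and 293 TPM in XX Rnf12 and 1241 and 266 in XX Wildtype. In Deletion D it was 555 and 522 and in Deletion F 184 and 186. At the low end it was 135 TPM in Deletion C-G and 150 in Deletion I replicate 2.

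A group of 5 called genes rose with slopes under 0.5. Oaf rose by 0.44, Adam8, a membrane protease, by 0.42, Il1rl1, a cytokine receptor, by 0.39, H2-D1, a class I histocompatibility chain, by 0.27 and S100a11 by 0.12 (SE 0.0375, adjusted p 0.0446). The call of S100a11 was the weakest of the 21 and was lost under 20 of 37 alternative settings.

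The 23 genes not called include the genes for ribosomal proteins, the proteasome and the respiratory chain. Over the 30 libraries their highest level was 2.48 times the lowest in the median gene, and at most 9.36 times. Rps15 had a slope of 0.01 (SE 0.0291), Rplp1 of 0.02 (SE 0.0315), Rpl11 of -0.03 (SE 0.0291) and Rpl7a of 0.02 (SE 0.041), none of them called by edgeR. Psma5 was at -0.02, Btf3, which binds nascent proteins at the ribosome, at -0.04, and Ubb at -0.00. Cox5b and Ndufa12, of the respiratory chain, were at -0.05 and -0.01, and the RNA-binding proteins Snrpd2 and Snu13 at -0.04 and -0.04. Among the other genes of this group, H2-K1, the other class I chain, had a slope of 0.08, Nphs1, a protein of the kidney filter, of 0.10, Car2, a carbonic anhydrase, of 0.21 and Crabp1 of 0.19. Prex2, Clca3b, Fsd1l, Nfyc, Recql, Tsen34, Irak3 and Ubald2 had slopes between -0.11 and 0.06.

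The most abundant of these genes showed what levels without a relation to Col1a1 look like. Rplp1 was at 6418 and 6608 TPM in XX Rnf12, 6587 and 6491 in Deletion E, 4248 and 5434 in XCastO129 and 5238 and 5531 in X129OCast, and at 6013, 7043 and 8759 in the batch of 20. The XO libraries were the lowest 4, but the difference from XX Rnf12 was not called (-0.21 log2, adjusted p 0.0554 in edgeR's test). Rps15 was at 2729 and 2821 TPM in XX Rnf12, 2532 and 2823 in Deletion E, 3231 and 3492 in XCastO129 and 3299 and 3205 in X129OCast, and was 0.39 log2 higher in XO than in XX Rnf12 (SE 0.0739, adjusted p 2.44e-04). Rpl11 was at 513 and 556 TPM in XX Rnf12 and between 731 and 813 in the XO libraries, higher by 0.66 log2 (adjusted p 1.29e-06 in edgeR's test). In these differences of level, library batch, sequencer, single reads and the loss of an X cannot be told apart.

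**Figure D3:**
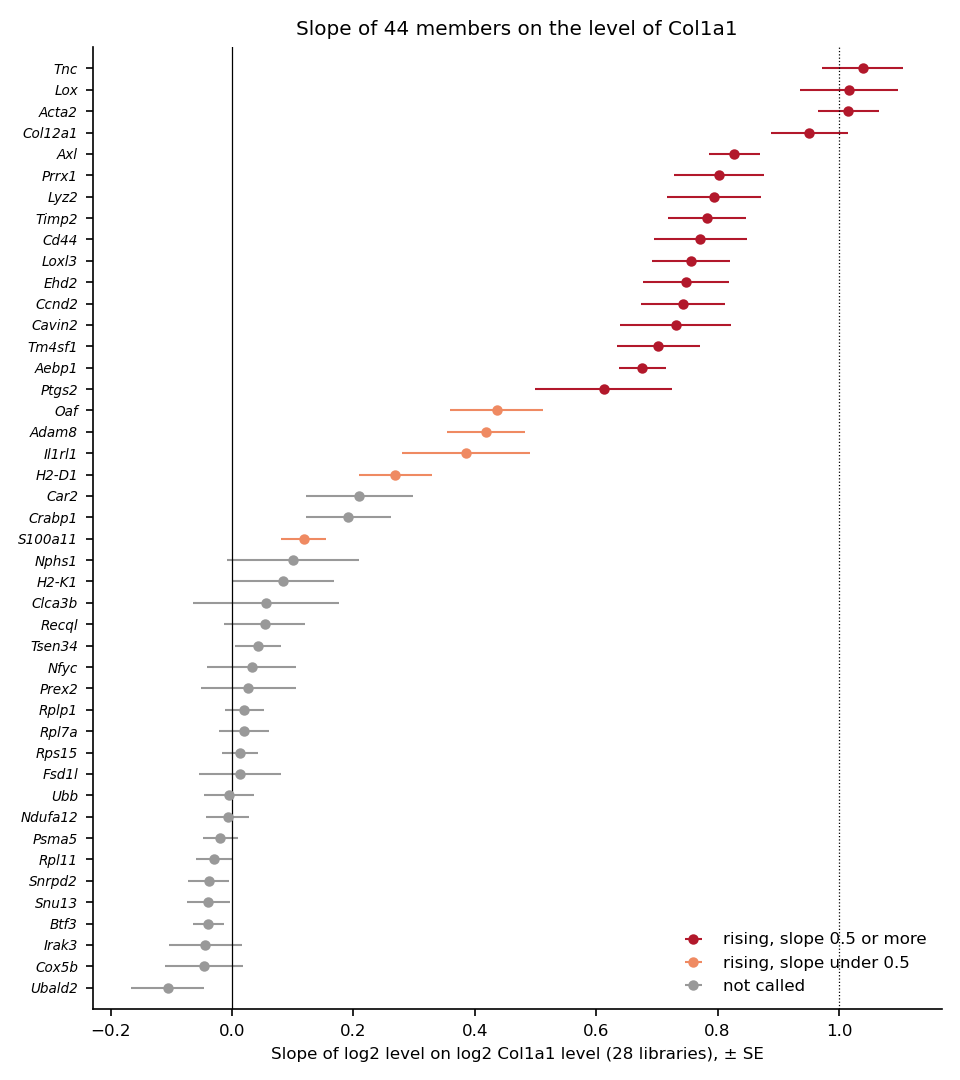
Slope of the log2 level of 44 members on the log2 level of Col1a1 over 28 libraries, with its standard error as bars, from edgeR's fit. Tnc, Lox and Acta2 lie near 1, the dotted line, and the 23 grey genes lie between -0.11 and 0.21.

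The 129 share split along other lines than the level. In an added comparison, chosen after the shares were seen, the ratio of 129 to Cast counts of 14 members was lower in the 4 XO libraries than in XX Rnf12 and of 0 members higher (edgeR's quasi-likelihood test on paired allelic counts, adjusted p under 0.05). Over all 11306 autosomal protein-coding genes tested, 3.07% were lower and 1.28% higher, and 27 of the 45 members had an unadjusted p under 0.05. Library batch, sequencer, single reads and the loss of an X cannot be told apart here. The 14 genes were Rplp1, Psma5, S100a11, Btf3, Rpl11, Rps15, Rpl7a, Cox5b, Ndufa12, Snrpd2, Snu13, Tsen34, Recql and Ccnd2, of which Ccnd2 was the single follower. At or above 90% in the XO libraries pooled were 15 of 16 followers and 8 of the 23 genes not called.

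The largest falls were in S100a11, Rplp1 and Psma5. For S100a11 the shares were 100% and 100% in XX Rnf12 and 64.5%, 56.4%, 70.2% and 68.5% in the XO libraries (XCastO129 first), with a log2 ratio of 129 to Cast counts lower by 8.29 (SE 0.724, adjusted p 7.68e-11), which depends on the prior count since XX Rnf12 held no Cast count. Pooled, it had 0 Cast counts of 1636 in the 24 paired-read libraries and 177 of 498 in XO, a 129 share of 64.5% (95% Wilson interval 60.2% to 68.5%). Each XO library lay below each paired-read library.

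For Rplp1 the shares were 99.2% and 99.6% in XX Rnf12 and 68.0%, 66.6%, 66.8% and 67.6% in XO, with a log2 ratio that fell by 6.25 (SE 0.299, adjusted p 1.58e-21 in edgeR's test). The 24 paired-read libraries held 46 Cast counts of 8303 and the XO libraries 4472 of 13633. All 4 XO libraries lay far below both XX Rnf12 libraries. For Psma5 the shares were 100% and 98.8% in XX Rnf12 and 65.0%, 66.8%, 69.1% and 70.9% in XO, and the log2 ratio fell by 6.17 (SE 0.4, adjusted p 1.21e-16). Its mean level was 291 TPM in the 24 paired-read libraries and 304 in XO, and was not called between XO and XX Rnf12 (adjusted p 0.25 in edgeR's test).

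Smaller falls had the same form. Pooled shares went from 95.1% in the 24 paired-read libraries to 65.9% in XO for Snrpd2, from 97.0% to 70.7% for Btf3, from 97.1% to 74.4% for Cox5b, from 84.3% to 59.6% for Tsen34, from 92.4% to 73.9% for Rpl11 and from 98.2% to 88.7% for Rps15. For 11 of the 45 genes all 4 XO libraries lay below all 24 paired-read libraries, and for 0 genes above them, where 1.26% of the 5869 genes with a share in every library lay below. The shares of Tnc and Acta2 were 99.9% and 99.3% in the paired-read and 99.9% and 99.1% in the XO libraries.

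Near-identical copies went with the genes whose share was lower in XO. Of the 11 genes with all XO libraries below the paired-read ones, 10 had a copy at 95% identity or more, and of the other 34 members 4 had. Btf3 was the exception, with 0 copies even at 90% identity. Among the other genes of the 5874, 40 of 63 (63.5%) with this pattern had a copy, and 363 of 5761 (6.30%) without it. By slope, 12 of the 23 genes not called had a copy and 1 of the 16 followers, Lyz2, whose copy is the neighbouring lysozyme gene Lyz1. Whether reads move between gene and copy was not tested.

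The copies had counts of their own. The 3 copies of Rplp1 together rested on 988 allelic counts in the paired-read libraries, 58.4% of them 129, and on 7635 in the XO libraries, 15.2% of them 129. The 2 copies of Psma5 had 2 allelic counts in the paired-read libraries and 105 in XO, of which 0 were 129, and the 3 copies of Rps15 had shares of 9.13% and 1.66%. The mean levels summed over the 6 copies of Rpl11 were 90.7 TPM in the paired-read and 743 in the XO libraries, and over the 31 copies of Rpl7a 70.3 and 582. Not all copies did this. The single copy of Cox5b was at 100% 129 in both, on 342 and 213 counts. The mean level of Tsen34's copy was 8.33 TPM in the paired-read and 3.25 in the XO libraries.

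Within the 28 libraries, with batch as a term, the 129 share of 3 members rose with Col1a1 and of 0 members fell, where 1.09% and 0.177% of 11305 genes did, and 11 members had an unadjusted p under 0.05. The log2 ratio of 129 to Cast counts rose by 1.16 per log2 of Col1a1 for Cd44 (SE 0.265, adjusted p 0.0144 in edgeR's test), by 0.75 for Oaf (SE 0.174, adjusted p 0.0171) and by 0.68 for Aebp1 (SE 0.161, adjusted p 0.0181). All 3 also rose in level. Cd44 had shares from 80% to 100% in the 24 paired-read libraries. The pooled share of the 16 followers ran from 91.7% in Deletion I replicate 2, which had the lowest Col1a1, to 99.2% in XX Rnf12 replicate 1. Deletion H replicate 2 and Deletion C-G, next lowest in Col1a1, were at 95.8% and 96.2%. Without Deletion I replicate 1 or without XX Rnf12 replicate 2 the count was 5 members, and in the batch of 20 alone it was 1, where Cd44, Oaf and Aebp1 were not called, with slopes of 1.52, 0.85 and 0.75.

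Between the XO lines 2 members differed in level, both higher in X129OCast, and 0 were lower (edgeR's test, 5 unadjusted). Of all 18099 genes tested, 3.06% were higher and 2.93% lower. The lines kept different X chromosomes and also differ in Rnf12. Rlim was at 3.53 TPM in both X129OCast libraries and at 71.2 and 77.8 in XCastO129. The X that was kept and the loss of Rnf12 cannot be told apart here. H2-K1 was at 54.8 and 37.2 TPM in XCastO129 and at 82.7 and 69.8 in X129OCast, higher by 0.78 log2 (SE 0.183, adjusted p 0.0181 in edgeR's test). H2-D1 was at 18.4 and 22.3 TPM in XCastO129 and at 30.5 and 33.1 in X129OCast, higher by 0.69 log2 (SE 0.183, adjusted p 0.032). Both encode heavy chains of class I histocompatibility molecules and lie on chromosome 17 at chr17:33996017-34000347 and chr17:35262730-35267499. The XO lines did not overlap in either gene, but in the deletion lines H2-K1 ran from 33.2 to 75.8 TPM and H2-D1 from 20.0 to 46.0. At 90% identity or more H2-K1 had 2 copies and H2-D1 had 6, so reads of this gene family may be split. Without either X129OCast library neither gene was called, and without either XCastO129 library not both were. The 129 share differed between the XO lines for 0 members in edgeR's test, with 5 at an unadjusted p under 0.05, where 0.159% of genes did.

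**Figure D4:**
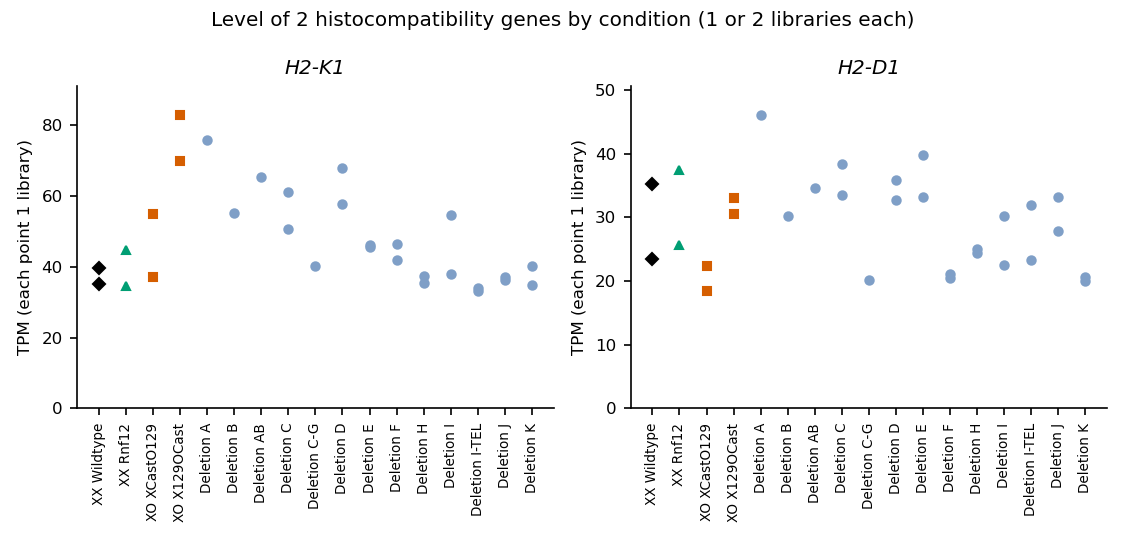
TPM of H2-K1 and H2-D1 in each of the 30 libraries by condition, 1 or 2 libraries each, on axes that start at 0. X129OCast lies above XCastO129 in both genes, and Deletion A reaches 75.8 TPM for H2-K1 and 46.0 for H2-D1.

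Other comparisons of level were read against all genes. Between Deletion E and XX Rnf12, of the same batch, edgeR called 0 of 45 members, with 5 at an unadjusted p under 0.05, where 0.575% of 18099 genes were called. DESeq2 called 0 as well. Without XX Rnf12 replicate 1, the library highest in the followers, 12 of 45 were called, where 5.49% of all genes were, with the remaining XX Rnf12 library assumed to vary like the other conditions. Between XO and XX Rnf12, 24 of 45 were called, 13 higher and 11 lower, where 47.2% of all genes were, 22.4% higher and 24.8% lower. Library batch, sequencer, single reads and the loss of an X cannot be told apart in this comparison. Nphs1 was higher by 1.32 log2, Cox5b by 1.24 and Snu13 by 1.14 (adjusted p 1.7e-04, 4.18e-05 and 9.62e-08 in edgeR's test). Lox, Acta2 and Tm4sf1 were lower, with differences of -1.86, -1.86 and -1.84 log2. Of the 11 lower genes 9 were followers, and without XX Rnf12 replicate 1, Acta2, Axl, Cd44 and Cavin2 changed sign. Among the 12 deletion lines of 1 batch 21 of 45 members varied, where 45.9% of all genes did. These lines include J and I-TEL, which came from the other Rnf12+/- line.

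Other genes of these kinds were counted from lists. Of 23 listed fibroblast matrix genes among the 5874, 4 were members (Col1a1, Col12a1, Lox and Timp2), and of 37 tested 26 rose with Col1a1. Their 129 shares in XX Wildtype had a median of 80.9% and ran from 12.3% to 99.3%. Col1a2 was at 78.9% with a slope of 0.98, and Thbs1, thrombospondin, at 20.8% with a slope of 1.01, so that genes as steep as the members were not all read from 129. Of the fibroblast identity and contractile genes, 3 of the 10 among the 5874 were members (Prrx1, Cd44 and Acta2), and 19 of 20 tested rose. Of 16 listed histocompatibility genes 4 were among the 5874 and 2 of these were members. B2m, the light chain, was at 86.4%, with a slope of 0.61, and Tapbp, which helps to load peptides, at 62.5%, with a slope of 0.15 that was not called. Of the 15 tested 5 rose. Over all genes tested 6.22% rose, and 0.766% of the 5874 were members.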

How the data were processed

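Bulk RNA-seq of 30 libraries was analysed, from TruSeq stranded mRNA libraries. Per the labels and the study's methods, the authors trimmed reads with Trim Galore 0.6.7, mapped them to mm10 with HISAT2 2.2.1 after masking the bases that differ between the strains, split them by strain with SNPsplit, merged them with SAMtools 1.10 and counted reverse-strand reads per gene. The methods name featureCounts and the submitters' processing notes HTSeq 0.12.4. The table the authors deposited holds whole-number counts, not normalized, in 3 columns per library: all reads, 129 reads and Cast reads. Rows of 181 genes without a match in GENCODE M21 held at most 0.00401% of a library's counts and were left out.

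TPM were computed here from the counts of all reads and the union of exons. Genes that reached 10 counts in 2 or more libraries were fitted with edgeR 4.0.16 in R 4.3.3 (quasi-likelihood, TMM), with DESeq2 1.42.0 as an alternative, with a threshold of 0.05 on p after Benjamini-Hochberg adjustment across the tested genes. The covariate was log2 CPM of Col1a1 with a prior count of 1. The 129 and Cast counts of genes with at least 100 allelic counts were fitted as paired columns with a term per library. Standard errors were taken from the estimate and its test statistic. Copies were searched with BLAST 2.17.0, each gene's longest coding sequence against all GENCODE M21 transcripts. Python 3.11.15 with pandas 2.3.3 and numpy 2.4.6 was used, and plots were drawn with matplotlib 3.10.9. The tests were tried on simulated data.

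Groups followed the titles. The study describes the replicates of its XX, XCastO129 and deletion cells as separate clones, and its methods take the XX level from Rnf12+/- cells. For XX Wildtype and X129OCast the sources used here do not say, and p-values then measure only the spread between these libraries. The genes and the lists were chosen with earlier results of these data known. Named are the 8 called members with the steepest slopes, the 8 of highest level with slopes near 0, those in the lists, the 5 of lowest share, the 3 largest called rises and falls per comparison, the 3 genes on either side of the threshold and the 5 with the most allelic counts. Others, such as Cavin2 and Cox5b, were named after their values were seen. The comparison of shares between XO and XX Rnf12 was added after the shares were seen.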

Additional observations from a re-analysis of the deposited data

Results flagged for a closer look

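For H2-K1 and H2-D1 the difference between XO and XX Rnf12 was not the same in both XO lines, by edgeR's test of the difference itself. H2-K1 was 0.78 log2 higher in X129OCast than in XCastO129 and H2-D1 0.69 log2 higher, with 2 libraries per line. The lines also differ in Rnf12, and no fit with a library of these lines left out called both genes. Conditions held 1 or 2 libraries, so no library was compared with others of its own group.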

How the results depend on the processing

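Depth limits the shares of low genes: 149 of the 1260 values rest on fewer than 20 allelic counts, and without them 83.2% are at 90% or more. The rule gave 70 genes with a minimum of 50 allelic counts, 26 with 200 and 78 over all gene types, and 23 to 42 with 1 XX Wildtype library left out (23 without replicate 1). The count rising with Col1a1 was 20 in the 24 paired-read libraries alone, an alternative added after seeing the data, and 20 to 22 with each library left out. No filter on low counts gave 7 members between the XO lines (4.71% of all genes), 8 between Deletion E and XX Rnf12 (1.99%) and 39 among the 12 lines (29.6%). Among these lines, leaving out replicate 1 or replicate 2 of every 2-clone line left 1 clone per line. Fewer members and also fewer of all genes were then called. Between the XO lines, and between Deletion E and XX Rnf12, leaving out 1 library left 1 library in a condition. The number of members called then moved, and so did the share of all genes called. The 129 share moved with Col1a1 for 7 members with Col1a2 and Col3a1 as the measure, where 4.13% of all genes did. It did so for 5 with all 30 libraries (1.54% of all genes), which include those that chose the genes. In the batch of 20 it moved for 1 (0.677%) and with a library left out for 2 to 5 (0.878% to 1.52%). It differed between the XO lines for 2 members at 20 allelic counts or more and for 0 to 1 with a library left out. Between XO and XX Rnf12 the number of members with a called difference in share, in either direction, moved with the library left out. Without XX Rnf12 replicate 1 or 2, the log2 difference between XO and XX Rnf12 was 0.04 or -2.36 for Cavin2, 0.56 or -2.04 for Cd44, 0.60 or -2.07 for Axl and 0.67 or -2.73 for Acta2. The causes were not tested. The replicate number as a block gave 21 members rising with Col1a1 and 22 between XO and XX Rnf12, with no other count moved by over 1.5 times. Conditions share replicate numbers but no source pairs them, and the differences of replicates 1 and 2 correlated over 0.1 in 30 of 78 pairs of conditions. The highest correlation was 0.799, between XX Rnf12 and XX Wildtype. The XX Rnf12 libraries may therefore not be independent of those that chose the genes.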

Other observations

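None of the listed imprinted genes among the 5874 was a member, where 0.766% of the 5874 were. At that share, lists this short would mostly hold none. Of 20 listed genes transcribed from the maternal copy 6 were among the 5874, such as Igf2r (61.5%) and Ube3a (47.7%), and 0 of these were members, with 129 shares in XX Wildtype from 47.7% to 66.6%. Of 25 listed genes transcribed from the paternal copy 11 were among the 5874 and 0 of these were members, with shares from 38.6% to 84.4%. Peg10 was at 38.6% and Sfmbt2 at 84.4%.

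Of 20 listed pluripotency genes 15 were among the 5874 and 0 of these were members, where 0.766% of the 5874 were. Their shares ran from 12.8% for Prdm14 to 75.9% for Dppa2. Of 20 tested, 0 rose with Col1a1 and 3 fell in edgeR's test: Klf4, with a slope of -0.34 (adjusted p 7.44e-04), Klf5 with -0.26 (adjusted p 0.00167) and Esrrb with -0.16 (adjusted p 0.026). Of the endothelial genes 0 of 5 tested rose, of the muscle genes 0 of 2 and of the primitive endoderm genes 1 of 6. Over all genes tested 6.22% rose and 2.53% fell. At that share of rises, counts of 0 or 1 in lists this short do not set them apart.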
